A study of Homo sapiens with 6 samples.

Results

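General splicing factors were described here by 5 gene families, and their RNA was measured in medulloblastoma cells after knockdown of the transcription factor OTX2. Members were the transcript clusters (the array's unit for 1 transcribed locus) whose single gene symbol was SRSF, HNRNP, PRPF or SNRP followed by a letter or digit, or RBM followed by digits only. After 7 pseudogene clusters were left out, 85 clusters of 84 genes remained among 16098 clusters with a symbol, which stood for 14884 named genes. Each gene was represented by its brightest cluster, judged by the mean over all 6 arrays. The members comprised 11 SNRP genes, 10 PRPF genes, 10 SRSF genes, 21 HNRNP genes and 32 RBM genes.

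Introns are removed from precursor mRNA by the spliceosome, which is assembled anew on each intron from small nuclear ribonucleoproteins (snRNPs) and many further proteins. SNRP genes encode the proteins of these particles and most PRPF genes encode proteins of the tri-snRNP and of the activated spliceosome. SR proteins (SRSF) mostly favor the use of nearby splice sites, hnRNP proteins (HNRNP) often repress them, and the RBM symbol is a naming series for unrelated proteins that share an RNA-binding domain, of which some act in splicing and others in RNA decay, export or ribosome assembly. OTX2 is a homeodomain factor that is expressed at high levels in Group 3 and Group 4 medulloblastoma.

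The medulloblastoma line D283, an established line that shares features with both subgroups, was grown as tumorspheres in neural proliferation medium with EGF and bFGF. Cells received either 1 siRNA against OTX2, s9931 (OTX2 KD, n = 3 arrays), or a non-silencing siRNA (scramble, n = 3 arrays), and the arrays of a group were biological replicates according to the methods. With a single siRNA in a single line, effects of that siRNA on other transcripts and effects of OTX2 cannot be told apart. The comparison of OTX2 KD with scramble asked which transcripts change when OTX2 is low.

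OTX2 itself was 9.62, 9.57 and 9.57 on the log2 scale in the 3 OTX2 KD arrays and 10.56, 10.56 and 10.55 in the 3 scramble arrays. The groups did not overlap, and OTX2 was 1.96-fold lower after knockdown (log2 difference -0.97 ± 0.0734 SE, limma, adjusted p = 8.7e-05). Array medians were 3.67 to 3.71 in OTX2 KD and 3.6 to 3.61 in scramble, and signal over background was not measured. Arrays correlated at r = 0.99 to 0.993 within groups (6 pairs) and 0.959 to 0.965 between groups (9 pairs), across clusters, which are not independent replicates. Of 10 measured Group 3 and Group 4 genes, 6 were lower and 3 higher. Among those lower was CRX, a photoreceptor factor, at a log2 difference of -2.11 (adjusted p = 1.36e-05). Those higher were UNC5D (3.02, the largest difference of the list), EYA1 (2.15) and BARHL1 (0.93). Markers of other cell types were lower in none of the lists. None of 3 astrocyte, 4 endothelial and 2 mesenchymal genes passed the test, whereas OLIG1 and OLIG2 among 4 oligodendrocyte genes and CD68, the only leukocyte gene measured, were higher. All 20 genes of a proliferation list were lower, with a median log2 difference of -2.38, and the mean of that list was 5.63 to 5.88 in OTX2 KD and 8.17 to 8.23 in scramble. Of 6 measured reference genes, HPRT1 (-0.87), PGK1 (-0.76) and PPIA (-0.52) were lower and GAPDH, TBP and B2M did not pass, with a list median of -0.34. The part of these shifts in the splicing factor values below was not tested. In bulk RNA, fewer cells of a type and less RNA per cell cannot be told apart.

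Over all families, 27 of the 84 members were lower in OTX2 KD, 10 were higher and 47 did not pass the test (limma, adjusted p below 0.05 over all clusters, with no fold limit). Of all clusters 27.9% were called, 13.1% lower and 14.8% higher. Of named genes 39.8% were called, 23.2% lower and 16.6% higher, and the corresponding shares of members were 44.0%, 32.1% and 11.9%. The share called was thus close to the background, and the balance between directions depended on scaling. After median centring of the arrays 37 members were lower and 6 higher, and after a repeated quantile normalization 27 were lower and 15 higher. All named genes moved too: lower calls were 58.3% of their calls as deposited, 67.5% after median centring and 58.7% after repeated quantile normalization. For members these shares were 73.0%, 86.0% and 64.3%. Among genes with a mean at or above the array median, a restriction chosen after seeing the data, 34.6% of 78 members and 31.3% of 10548 named genes were lower, and 11.5% and 21.0% were higher. The median log2 difference of members was -0.15, against 0.00 for all named genes, and single members ranged from -1.42 to 1.09. The OTX2 KD arrays lay entirely below the scramble arrays for 39 members and entirely above them for 19, where named genes gave 30.6% and 24.9%. Changes were mostly small, with 4 members at least 2-fold lower (RBM47, SNRPD1, SNRPB and HNRNPAB) and 1 at least 2-fold higher (RBM5), where named genes gave 6.89% and 3.82%.

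**Figure D1:**
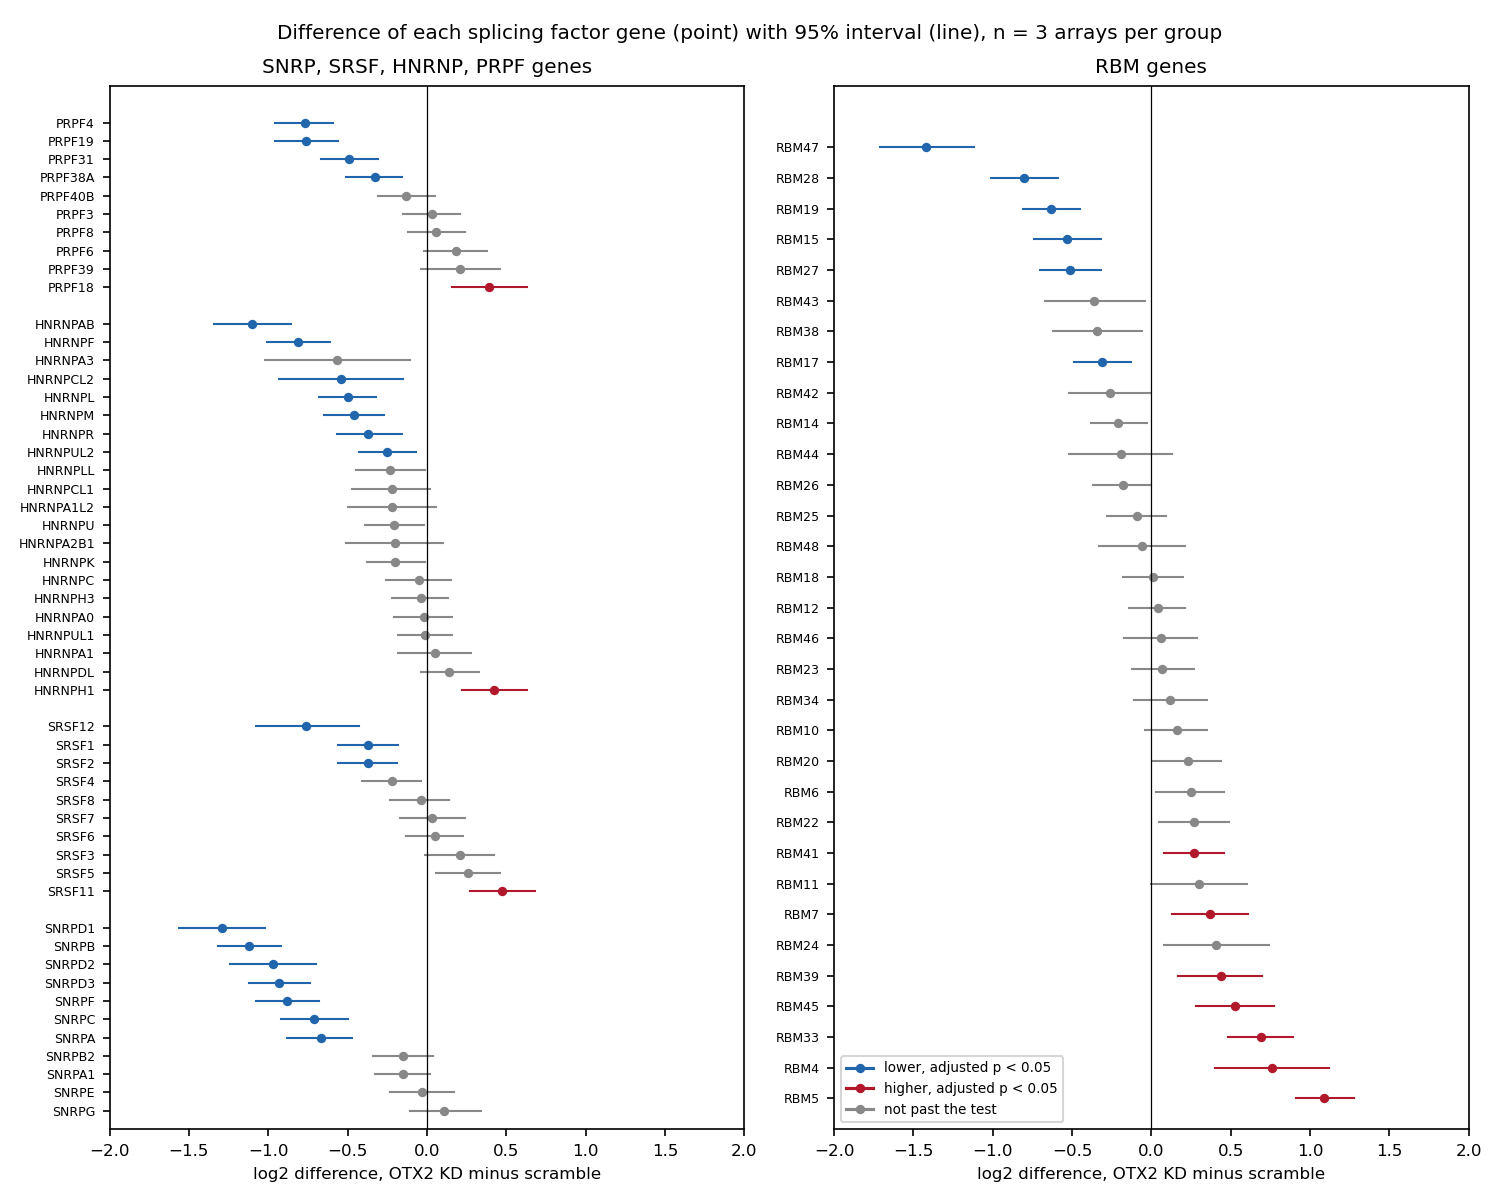
Log2 difference of each of the 84 splicing factor genes (OTX2 KD minus scramble, horizontal axis, points), with its 95% interval (lines), by family; blue and red mark genes past adjusted p 0.05. The SNRP genes reached -1.29 and none was higher, whereas RBM genes ran from -1.42 (RBM47) to 1.09 (RBM5).

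The SNRP genes, which encode the proteins that stay bound to the spliceosomal RNAs, showed the largest median shift of the 5 families. Of 11 genes 7 were lower (63.6%), 0 were higher and 4 did not pass, with a median log2 difference of -0.71. Of all named genes 23.2% were lower and 16.6% higher, and of those at or above the array median 31.3% and 21.0%. The SNRP counts were the same under median centring and under repeated quantile normalization, and no array that was left out changed them. Most of the fall lay in the Sm genes, whose proteins form the ring around the U1, U2, U4 and U5 RNAs. Of the 7 Sm genes 5 were lower, with a family median of -0.93.

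SNRPD1, an Sm ring protein, was 7.77, 7.58 and 7.97 in OTX2 KD and 8.98, 9.07 and 9.14 in scramble. Every knockdown array lay below every control array, and the gene was 2.44-fold lower (log2 difference -1.29 ± 0.115 SE, adjusted p = 0.000189). SNRPB, which encodes the SmB and SmB′ proteins of the same ring, was 6.70, 6.60 and 6.66 in OTX2 KD and 7.87, 7.73 and 7.72 in scramble. Its groups were separated as well, by a log2 difference of -1.12 ± 0.0833 (SE, adjusted p = 8.11e-05), or 2.17-fold. SNRPD2 values were 6.73, 6.37 and 6.62 in OTX2 KD and 7.65, 7.50 and 7.48 in scramble. The lowest control value exceeded the highest knockdown value, with a difference of -0.97 ± 0.115 (SE, adjusted p = 0.000719). SNRPD3 values were 8.61, 8.59 and 8.57 in OTX2 KD and 9.42, 9.60 and 9.54 in scramble. The knockdown arrays had an SD of 0.0214 and were all lower, by -0.93 ± 0.082 (SE, adjusted p = 0.000177). SNRPF was likewise lower in each OTX2 KD array (4.30, 4.18 and 4.19, against 5.03, 5.11 and 5.17), with a difference of -0.88 ± 0.0835 (SE, adjusted p = 0.000248).

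The other Sm genes did not pass. SNRPG was 4.47, 4.42 and 4.53 in OTX2 KD and 4.51, 4.33 and 4.25 in scramble, so that the groups overlapped, and its difference of 0.11 had a 95% interval of -0.11 to 0.34. SNRPE was the only member with more than 1 cluster, and its clusters disagreed. The brighter cluster (16676265) gave 5.40, 5.20 and 5.27 in OTX2 KD and 5.29, 5.34 and 5.34 in scramble, a difference of -0.03 (adjusted p = 0.814) between overlapping groups. The dimmer cluster (17092302) gave 3.73, 3.66 and 3.74 in OTX2 KD and 4.49, 4.45 and 4.45 in scramble, without overlap and with a difference of -0.75 ± 0.0753 (SE, adjusted p = 0.000318). Small snRNP genes have near-identical processed copies in the genome, and which copies each cluster's probes match was not examined here.

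The remaining SNRP genes encode proteins specific to U1 or U2. U1 components SNRPC and SNRPA, which help U1 recognize the start of an intron, were lower. SNRPC was 5.72, 5.54 and 5.60 in OTX2 KD and 6.41, 6.35 and 6.23 in scramble, and SNRPA was 8.29, 8.17 and 8.30 against 8.97, 8.97 and 8.83. Neither gene had overlapping groups, with differences of -0.71 ± 0.0904 (SE, adjusted p = 0.001) for SNRPC and -0.67 ± 0.0864 (SE, adjusted p = 0.00104) for SNRPA. The U2 components SNRPA1 and SNRPB2 each differed by -0.15 and did not pass (adjusted p = 0.183 and 0.219), although in both genes every scramble value exceeded every knockdown value.

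**Figure D2:**
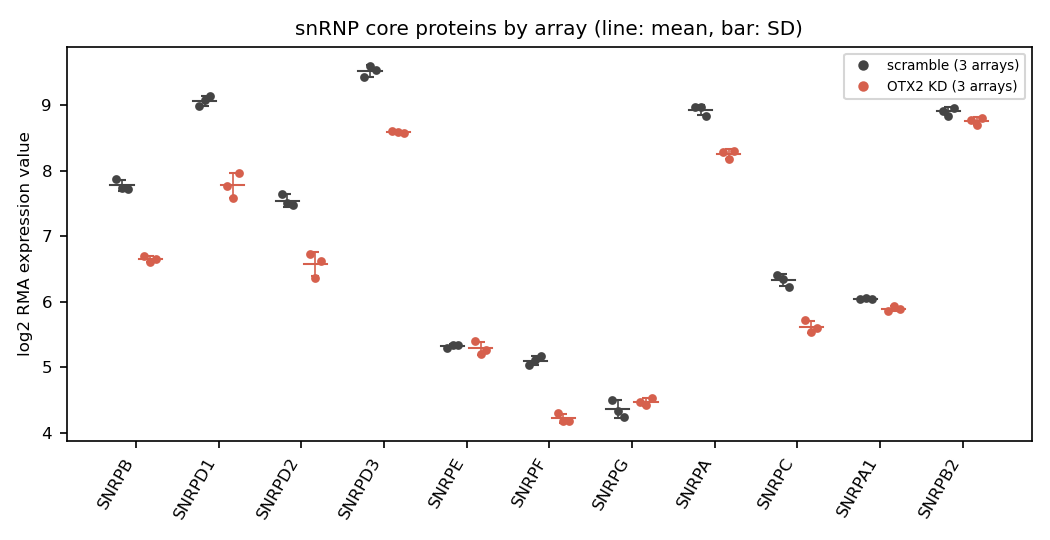
Log2 expression value (vertical axis) of the 11 SNRP genes in each of the 3 scramble arrays (dark points) and 3 OTX2 KD arrays (red points), with group means (horizontal lines) and SD (bars). SNRPB, SNRPD1, SNRPD2, SNRPD3, SNRPF, SNRPA and SNRPC are lower in every OTX2 KD array, whereas the points of SNRPE and SNRPG overlap.

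RNA of genes listed for the SMN complex and Sm ring assembly was mostly lower as well. The listed genes SMN1, SMN2 and CLNS1A were not analysed. Of 14 measured genes of the SMN complex and of Sm ring assembly, 11 were lower, 0 were higher and 3 did not pass, with a median log2 difference of -0.55, beside 23.2% lower and a median of 0.00 for all named genes. GEMIN4, a subunit of the SMN complex that loads Sm proteins onto snRNA, was 5.23, 5.14 and 5.14 in OTX2 KD and 6.71, 6.61 and 6.54 in scramble. The groups were far apart relative to their spread (difference -1.45 ± 0.0845 SE, adjusted p = 2.83e-05). WDR77, a partner of the arginine methyltransferase PRMT5 that modifies SmB, SmD1 and SmD3, was 6.94, 6.74 and 6.82 against 8.11, 7.99 and 7.98, a difference of -1.19 ± 0.0902 (SE, adjusted p = 8.78e-05). PRMT5 (-1.14), GEMIN5 (-1.11) and TGS1 (-0.92), which adds the trimethylated cap of snRNAs, were also lower. COIL (-0.30), the marker protein of Cajal bodies, PHAX (-0.23) and GEMIN8 (0.05) did not pass.

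Promoter sequences were examined for members because several of them moved together, using RefSeq start sites on GRCh38.p14 with 250 bases before and 50 after each start. Of the 84 members 76 matched, with 100 windows, and 35116 windows of 27305 genes were searched in all. The motifs were TAATCC, the core letters bound by OTX2-type homeodomains, CACGTG, the E-box bound by MYC and related factors, and TTCCCGC and TTGGCGC, core letters of E2F sites. Both strands were searched, and none of these motifs contains another. TAATCC was found in 9 of 100 member windows (9%) and in 6.36% of all windows (5.47% of windows of coding genes). CACGTG was found in 8% of member windows and 7.26% of all windows (8.34% of coding). TTCCCGC was found in 17% of member windows and 6.55% of all windows (8.13% of windows of coding genes), and TTGGCGC in 7% and 3.04% (3.83% of coding). By outcome, TTCCCGC or TTGGCGC occurred in 8 of 25 matched genes that were lower, 2 of 9 that were higher and 11 of 42 that did not pass, so that it was not confined to genes that were lower. A gene was counted if any of its windows held the motif. A match is a description of letters and not of binding, and start sites outside these RefSeq windows were not searched.

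The windows of SNRPB and SNRPD2 are shown as those of the matched Sm genes that hold a searched motif, and SNRPD1 was not among the matched genes. The SNRPB window (chr20:2470740-2471039, minus strand) has TTCCCGC on the opposite strand, in capitals as GCGGGAA. The SNRPD2 window (chr19:45691943-45692242, minus strand), 1 of 3 windows of that gene, has TTGGCGC on the opposite strand, in capitals as GCGCCAA.
SNRPB: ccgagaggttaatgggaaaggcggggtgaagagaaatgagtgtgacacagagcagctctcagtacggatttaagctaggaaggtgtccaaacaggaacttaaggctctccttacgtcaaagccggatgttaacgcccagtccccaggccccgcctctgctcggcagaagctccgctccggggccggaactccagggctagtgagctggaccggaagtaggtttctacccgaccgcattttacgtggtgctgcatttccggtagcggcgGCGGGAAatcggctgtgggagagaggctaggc
SNRPD2: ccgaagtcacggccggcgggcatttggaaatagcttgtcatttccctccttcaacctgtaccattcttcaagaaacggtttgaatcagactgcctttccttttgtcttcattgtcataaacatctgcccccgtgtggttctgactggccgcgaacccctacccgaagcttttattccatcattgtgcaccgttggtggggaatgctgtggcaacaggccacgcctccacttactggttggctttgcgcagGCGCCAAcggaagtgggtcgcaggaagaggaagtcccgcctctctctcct

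The PRPF genes, most of which act from the tri-snRNP to the catalytic steps, held calls in both directions. Of 10 genes 4 were lower, 1 was higher and 5 did not pass, beside 23.2% and 16.6% of all named genes, with a median log2 difference of -0.05. After median centring 4 were lower and none was higher, where 4075 of 14884 named genes were lower and 1966 higher. PRPF4, a U4/U6 protein, was 7.88, 7.78 and 7.77 in OTX2 KD and 8.59, 8.60 and 8.57 in scramble. All 3 knockdown values were lower, by -0.77 ± 0.0772 (SE, limma, adjusted p = 0.000312). PRPF19, the ubiquitin ligase that scaffolds the PRP19 complex of the active spliceosome, was 7.43, 7.28 and 7.35 in OTX2 KD and 8.16, 8.13 and 8.04 in scramble. Here too the groups were separate, with a difference of -0.76 ± 0.0833 (SE, adjusted p = 0.000492). PRPF31, a U4 protein mutated in a form of retinitis pigmentosa, was 7.01, 6.92 and 6.92 against 7.41, 7.43 and 7.47, and was lower by -0.49 ± 0.0771 (SE, adjusted p = 0.00276). PRPF38A, which joins the spliceosome before activation, differed by -0.33 ± 0.0752 (SE, adjusted p = 0.0142), with 8.69, 8.62 and 8.63 against 8.95, 8.98 and 9.01.

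PRPF18, a factor of the second catalytic step, was the only PRPF gene that was higher. It was 6.03, 5.85 and 5.95 in OTX2 KD and 5.40, 5.60 and 5.66 in scramble, without overlap. The difference of 0.39 ± 0.0998 (SE, adjusted p = 0.0238) did not pass when OTX2 KD replicate 1 or 3 or scramble replicate 1 or 2 was left out (adjusted p up to 0.0764), nor after median centring (0.0751). PRPF8, the large U5 protein at the center of the catalytic spliceosome, was 9.19, 9.15 and 9.16 against 9.15, 9.12 and 9.05, with overlapping groups. Its difference was 0.06, with a 95% interval of -0.12 to 0.24. PRPF3 (0.03), PRPF6 (0.18), PRPF39 (0.21) and PRPF40B (-0.13) did not pass either.

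Other proteins of the same particles were taken from lists of splicing genes outside the member families, and more of them were lower than higher. Of 17 further U1 and tri-snRNP proteins, 8 were lower, 2 were higher and 7 did not pass, with a median log2 difference of -0.28. The shares were 47.1% lower and 11.8% higher, beside 23.2% and 16.6% of all named genes. SNRNP40, a U5 protein, differed by -0.85 ± 0.11 (SE, adjusted p = 0.00106) and EFTUD2, the U5 GTPase, by -0.75 ± 0.0748 (SE, adjusted p = 0.00032). LUC7L and LUC7L3, relatives of a yeast U1 protein, were higher, by 0.41 (adjusted p = 0.00713) and 0.47. LUC7L3 (adjusted p = 0.0172) did not pass without OTX2 KD replicate 1 or 3 or scramble replicate 1 or 2, with the highest adjusted p at 0.0611. Of 32 PRP19 complex and catalytic proteins, 12 were lower (37.5%), 0 were higher and 20 did not pass (median -0.23). The prolyl isomerase PPIL1 (-1.14, adjusted p = 6.19e-05) and MFAP1, a protein of the precatalytic spliceosome (-0.84, adjusted p = 0.000173), had the largest falls there.

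Among the U2 and branch site genes that were measured, the share lower (30.0%) was near that of all named genes (23.2%). Of 10 measured genes 3 were lower, 0 were higher and 7 did not pass (median -0.09). Another 10 of the 20 listed genes were not analysed, among them all with SF3A or SF3B symbols, so the share does not describe the U2 particle as a whole. PHF5A, a small SF3b subunit, was 5.98, 5.74 and 5.93 in OTX2 KD and 6.51, 6.47 and 6.55 in scramble, separate groups with a difference of -0.63 ± 0.0923 (SE, adjusted p = 0.00196). U2AF2, which binds the polypyrimidine tract, differed by -0.34 (adjusted p = 0.0136), and by -0.33 with adjusted p = 0.0504 when scramble replicate 2 was left out. Of 7 proteins of the minor spliceosome, which removes a rare class of introns, 4 were lower (57.1%) and 1 was higher (14.3%). All named genes gave 23.2% and 16.6%. The U11 proteins SNRNP48 (-0.78, adjusted p = 0.000888) and SNRNP25 (-0.54, adjusted p = 0.00205) were lower and CENATAC (0.53, adjusted p = 0.0113) was higher.

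Over all of these lists together, with the kinases and export factors given below, 48 of 105 genes (45.7%) were lower and 10 (9.52%) were higher, with a median of -0.27. Of all named genes 23.2% were lower and 16.6% higher, and of those at or above the array median 31.3% and 21.0%. The U6-specific LSm ring was not analysed here.

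**Figure D3:**
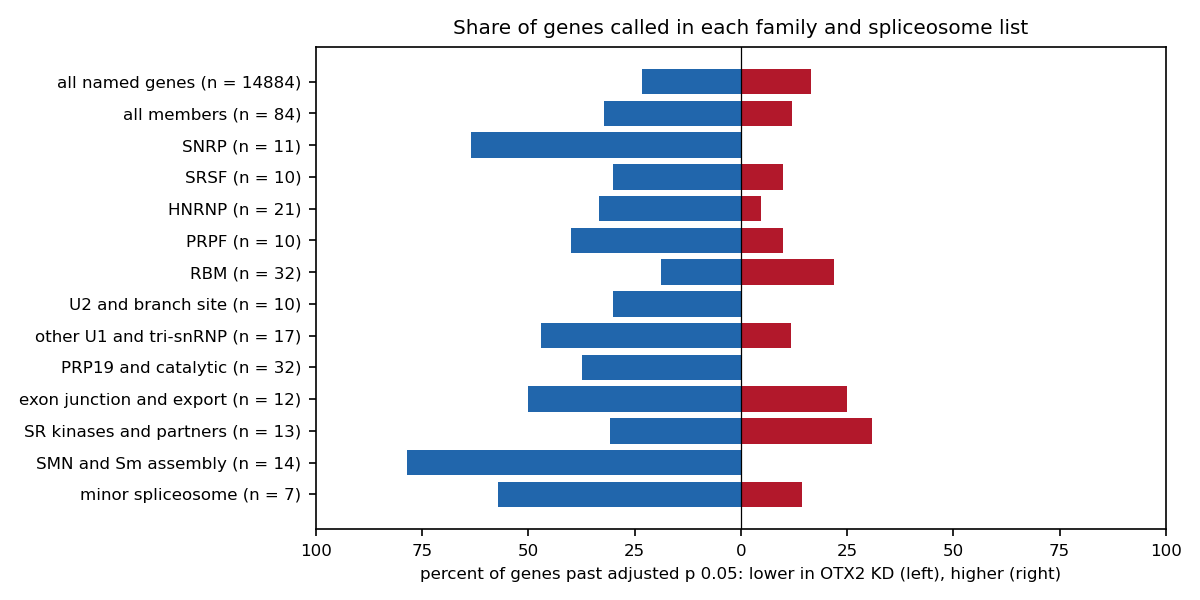
Percent of genes past adjusted p 0.05 in each splicing factor family and spliceosome list (rows, with the number of genes), lower in OTX2 KD to the left in blue and higher to the right in red. SNRP genes (63.6% lower) and SMN and Sm assembly genes (78.6% lower) extend farther left than all named genes (23.2%), and RBM genes have more higher (21.9%) than lower (18.8%) calls.

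SR proteins, which carry a domain rich in arginine and serine and help define exons, changed modestly. Of 10 SRSF genes 3 were lower, 1 was higher and 6 did not pass, beside 23.2% lower and 16.6% higher of all named genes. Named genes at or above the array median gave 31.3% and 21.0%. The family median was -0.00 and changed sign with scaling, at -0.09 after median centring and 0.03 after repeated quantile normalization. The median of all named genes was 0.00 as deposited and -0.09 and -0.04 under these scalings. SRSF1, the first SR protein described, was 9.87, 9.80 and 9.76 in OTX2 KD and 10.15, 10.15 and 10.24 in scramble. SRSF2, also known as SC35, was 9.02, 9.04 and 9.02 against 9.38, 9.34 and 9.48. Both were lower in every knockdown array, each by a log2 difference of -0.37 (limma, adjusted p = 0.0117 for SRSF1 and 0.0109 for SRSF2). SRSF12, an SR protein that can counteract other family members, had the largest fall, with 4.48, 4.26 and 4.47 against 4.93, 5.42 and 5.13. The difference was -0.76 ± 0.138 (SE, adjusted p = 0.00561), and the spread of the scramble arrays (SD 0.243) was wider than for the other SRSF genes.

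SRSF11 was the only SR gene that was higher under the deposited scaling. It was 8.40, 8.34 and 8.48 in OTX2 KD and 7.91, 7.85 and 8.04 in scramble, without overlap, a difference of 0.47 ± 0.0883 (SE, adjusted p = 0.00612). SRSF3, which binds pyrimidine-rich exons, was 9.73, 9.59 and 9.61 against 9.31, 9.47 and 9.53. Its groups were just separate, and its difference of 0.21 did not pass (adjusted p = 0.151). SRSF5 (0.26, adjusted p = 0.0595) and SRSF4 (-0.22, adjusted p = 0.0773) were also separated between groups without passing. SRSF6, SRSF7 and SRSF8 had overlapping groups and differences between -0.04 and 0.05.

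Kinases and partners of SR proteins included genes of both directions. Of 13 genes in a list of SR protein kinases, import factors and partners, 4 were lower, 4 were higher and 5 did not pass. The share was 30.8% in each direction. Of all named genes 23.2% were lower and 16.6% higher, and of those at or above the array median 31.3% and 21.0%. All 4 that were higher were kinases, and SRPK1 was the only kinase that was lower, beside TNPO3, PPIG and TRA2B. CLK1, a nuclear kinase of SR proteins, was 8.27, 8.13 and 8.26 in OTX2 KD and 7.02, 7.07 and 7.17 in scramble. It was 1.13 ± 0.0861 (SE, adjusted p = 8.88e-05) higher on the log2 scale, and the related kinase CLK4 was 0.55 ± 0.117 higher (SE, adjusted p = 0.0107). SRPK1, a mainly cytoplasmic SR kinase, was 6.67, 6.67 and 6.76 in OTX2 KD and 7.63, 7.53 and 7.62 in scramble. It was lower by -0.89 ± 0.0797 (SE, adjusted p = 0.000189), as was TNPO3, the receptor that imports SR proteins into the nucleus (-0.53, adjusted p = 0.00248). SRPK2, a paralog of SRPK1, was higher (0.54, adjusted p = 0.0023), as was the kinase DYRK1A (0.35, adjusted p = 0.0179). CLK2 (-0.01), CLK3 (0.14) and SRPK3 (-0.11) did not pass.

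The hnRNP family had more members lower than higher, and many of its most studied members did not pass. Of 21 HNRNP genes 7 were lower, 1 was higher and 13 did not pass, with a median log2 difference of -0.22. The shares were 33.3% lower and 4.76% higher, beside 23.2% and 16.6% of all named genes. After median centring 11 were lower and 1 higher, where 4075 of 14884 named genes were lower and 1966 higher. Without scramble replicate 3 only 5 HNRNP genes passed in all. HNRNPAB, which binds mRNAs that are transported in neurons and oligodendrocytes, was 8.25, 8.07 and 8.39 in OTX2 KD and 9.38, 9.28 and 9.35 in scramble. The lowest scramble array lay well above the highest knockdown array, and the gene was 2.14-fold lower (difference -1.10 ± 0.103 SE, limma, adjusted p = 0.00023).

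The G-run binding proteins HNRNPF and HNRNPH1, which are close relatives, moved apart. HNRNPF was 8.02, 7.86 and 7.91 in OTX2 KD and 8.66, 8.79 and 8.77 in scramble, and was lower by -0.81 ± 0.0859 (SE, adjusted p = 0.000422). HNRNPH1 was 7.81, 7.73 and 7.93 in OTX2 KD and 7.38, 7.37 and 7.45 in scramble, and was higher by 0.42 ± 0.0869 (SE, adjusted p = 0.0096). In both genes the groups were separate. HNRNPH3, another relative, had overlapping groups and a difference of -0.04.

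HNRNPL, which binds CA-rich RNA, was 8.52, 8.50 and 8.55 in OTX2 KD and 9.07, 9.04 and 8.97 in scramble, and HNRNPM was 9.52, 9.50 and 9.43 against 9.91, 10.02 and 9.90. Both were lower in all knockdown arrays, by -0.50 (adjusted p = 0.00226) and -0.46 (adjusted p = 0.00456). HNRNPR, which is known for its part in axonal mRNA transport, differed by -0.37 (adjusted p = 0.0167) and did not pass without OTX2 KD replicate 2 or scramble replicate 2 or 3 (highest adjusted p = 0.0579). HNRNPUL2 differed by -0.25 (adjusted p = 0.0488) and lost its call whichever of the 6 arrays was left out (highest adjusted p = 0.143), as well as after repeated quantile normalization (0.0811). HNRNPCL2, a copy related to HNRNPC, was 3.93, 4.09 and 3.55 against 4.55, 4.17 and 4.47. Its difference of -0.54 (adjusted p = 0.0466) did not pass without OTX2 KD replicate 1 or 3 or scramble replicate 1 or 3 (highest adjusted p = 0.129), and cross-hybridization with other HNRNPC copies was not tested.

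Among the members that did not pass, HNRNPA1, a repressor of exon inclusion, was 8.16, 8.23 and 8.17 in OTX2 KD and 8.02, 8.09 and 8.30 in scramble. The groups overlapped, and the 95% interval of the difference was -0.18 to 0.28. HNRNPC, which binds U-rich tracts, had an interval of -0.26 to 0.15, and HNRNPUL1 one of -0.18 to 0.16. HNRNPK and HNRNPU had separate groups but small differences of -0.20 (adjusted p = 0.113) and -0.21 (adjusted p = 0.102). HNRNPA3 had the largest difference of those that did not pass, -0.57 (adjusted p = 0.0685), with overlapping groups, and HNRNPDL the highest, 0.14 (adjusted p = 0.244).

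**Figure D4:**
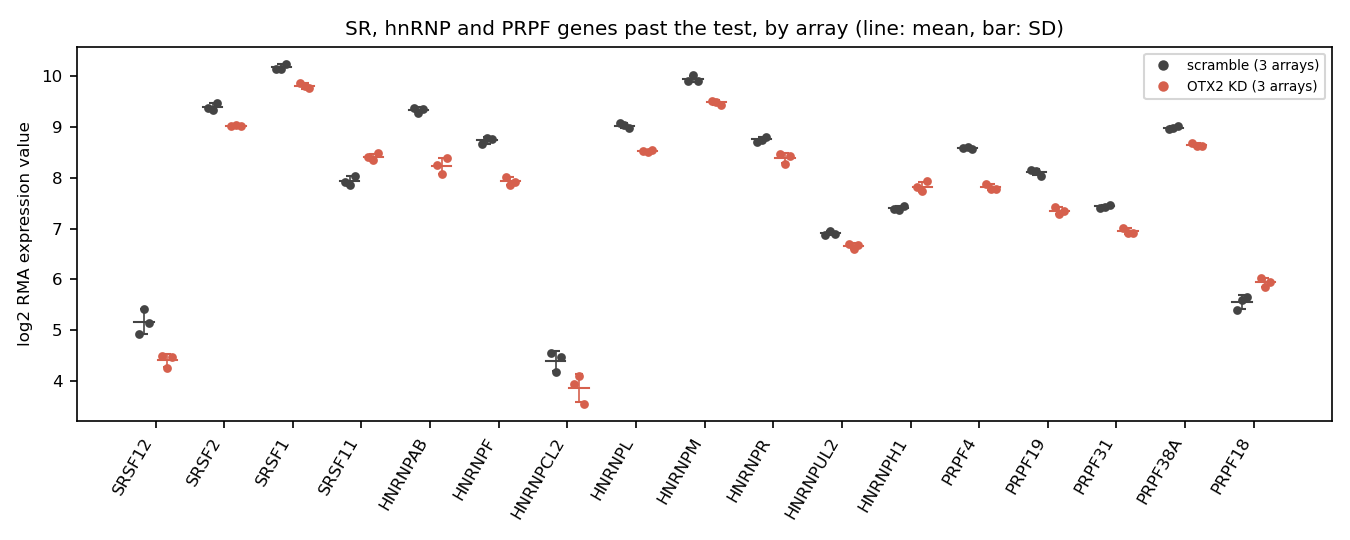
Log2 expression value (vertical axis) of the 17 SRSF, HNRNP and PRPF genes past adjusted p 0.05 in each scramble array (dark points, n = 3) and OTX2 KD array (red points, n = 3), with means (horizontal lines) and SD (bars). HNRNPAB shows the widest gap, from a mean of 9.33 to 8.24, and SRSF11, HNRNPH1 and PRPF18 are the genes that are higher in OTX2 KD.

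Proteins that act on spliced mRNA showed both directions. Of 12 measured genes of the exon junction complex, cap binding and export, 6 were lower, 3 were higher and 3 did not pass. The background was 23.2% lower and 16.6% higher for all named genes, and 31.3% and 21.0% for those at or above the array median. ALYREF, an adaptor for mRNA export, was lower by -0.97 ± 0.0857 (SE, adjusted p = 0.000176) and THOC6, a subunit of the same export pathway, by -0.81 ± 0.0972 (SE, adjusted p = 0.000758). The exon junction proteins ACIN1 and CASC3 were higher, by 0.41 (adjusted p = 0.01) and 0.40 (adjusted p = 0.00796).

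The RBM genes, the largest family and the least uniform in function, held calls in both directions at close to the background rate. Of 32 genes 6 were lower (18.8%), 7 were higher (21.9%) and 19 did not pass, beside 23.2% and 16.6% of all named genes, with a median log2 difference of 0.05. This balance was not stable to scaling. There were 11 lower and 4 higher after median centring (median -0.04), and 7 lower and 11 higher after repeated quantile normalization (median 0.06). Lower calls were 73.3% and 38.9% of RBM calls under these scalings, beside 67.5% and 58.7% of calls among all named genes. Of the RBM genes 5 lay below the array median on average.

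RBM5, a splicing regulator located in a chromosome region often lost in lung cancer, had the largest rise of all members. It was 8.57, 8.51 and 8.46 in OTX2 KD and 7.38, 7.40 and 7.48 in scramble. The gap between the groups was many times the SD of either (0.0554 and 0.0501), a 2.13-fold rise (difference 1.09 ± 0.0791 SE, limma, adjusted p = 7.25e-05). RBM6, its immediate neighbor on chromosome 3 and a related protein, was 7.70, 7.59 and 7.61 in OTX2 KD and 7.39, 7.27 and 7.49 in scramble. Its groups were also separate, but the difference of 0.25 did not pass (adjusted p = 0.0861). RBM10, another relative of RBM5 in sequence, was 7.61, 7.51 and 7.44 against 7.39, 7.38 and 7.33, with a difference of 0.16 (adjusted p = 0.217).

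RBM33 was 6.97, 7.09 and 6.90 in OTX2 KD and 6.23, 6.29 and 6.37 in scramble, a separation of 0.69 ± 0.0883 (SE, adjusted p = 0.00105). RBM45, an RNA-binding protein of the developing nervous system, was 6.21, 6.02 and 6.15 against 5.75, 5.48 and 5.57, higher by 0.53 ± 0.103 (SE, adjusted p = 0.00764). RBM4, an alternative splicing regulator, was 3.61, 3.11 and 3.69 against 2.70, 2.68 and 2.75. All scramble values of RBM4 and those of OTX2 KD replicates 1 and 2 lay below their array medians, and OTX2 KD replicate 3 was at its median (3.69). RBM4 was thus dim in both groups, and its difference of 0.76 ± 0.153 (SE, adjusted p = 0.00882) is uncertain. Its paralog RBM4B, which the naming rule left out, was 6.88, 6.89 and 6.88 against 6.36, 6.25 and 6.35, higher by 0.56 ± 0.0767 (SE, adjusted p = 0.00142). RBM14, the immediate neighbor of RBM4 on chromosome 11, differed by -0.21 and did not pass (adjusted p = 0.0861).

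Smaller rises were seen in RBM39 (0.44), a U2AF-related splicing factor, RBM7 (0.37), a subunit of a complex that targets nuclear RNA for decay, and RBM41 (0.27). Each of these depended on single arrays. RBM39 did not pass without any of the OTX2 KD arrays or without scramble replicate 1 or 2 (highest adjusted p = 0.0704), RBM7 without replicate 1 or 2 of either group (0.109), and RBM41 without 5 of the 6 arrays, scramble replicates 1, 2 and 3 and OTX2 KD replicates 1 and 3 (0.131). All of them also failed after median centring (adjusted p = 0.0615, 0.0874 and 0.181).

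RBM47, a cofactor of mRNA editing by cytidine deamination, had the largest fall of all members. It was 3.62, 3.53 and 3.91 in OTX2 KD and 5.23, 5.12 and 4.96 in scramble. The groups were far apart (difference -1.42 ± 0.125 SE, 2.67-fold, adjusted p = 0.000178), and OTX2 KD replicates 1 and 2 lay below their array medians. RBM28 and RBM19, nucleolar proteins whose yeast relatives act in ribosome assembly, were lower. RBM28 was 5.60, 5.42 and 5.55 against 6.27, 6.29 and 6.41, and RBM19 was 5.61, 5.55 and 5.52 against 6.20, 6.20 and 6.17. No values overlapped, and the differences were -0.80 ± 0.089 (SE, adjusted p = 0.00053) and -0.63 ± 0.0755 (SE, adjusted p = 0.000735).

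RBM15, an adaptor of the complex that writes N6-methyladenosine, was 6.35, 6.19 and 6.23 in OTX2 KD and 6.69, 6.88 and 6.79 in scramble, lower by -0.53 ± 0.0898 (SE, adjusted p = 0.00389). RBM27, which takes part in decay of nuclear polyadenylated RNA, was 7.37, 7.26 and 7.26 against 7.77, 7.78 and 7.86. It was lower by -0.51 ± 0.0801 (SE, adjusted p = 0.00281), and in neither gene did the groups overlap. RBM17, a factor for alternative 3′ splice site choice, differed by -0.31 (adjusted p = 0.0217) and did not pass without any of the scramble arrays or without OTX2 KD replicate 3 (highest adjusted p = 0.0695).

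Several RBM genes with known roles in splicing did not pass. RBM22, which contacts the catalytic RNA, was 8.19, 7.97 and 8.12 in OTX2 KD and 7.91, 7.81 and 7.75 in scramble, with a difference of 0.27 (adjusted p = 0.0752) between separate groups. RBM25, a U1-associated regulator, had overlapping groups and a 95% interval of -0.28 to 0.09. The muscle splicing factors RBM24 (0.41, adjusted p = 0.0687) and RBM20 (0.23, adjusted p = 0.111) were separated between groups without passing. RBM11, RBM43, RBM44 and RBM46 were dim on these arrays, with means below the array median, and had overlapping groups. Over the 19 RBM genes that did not pass, differences ranged from -0.36 (RBM43) to 0.41 (RBM24).

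**Figure D5:**
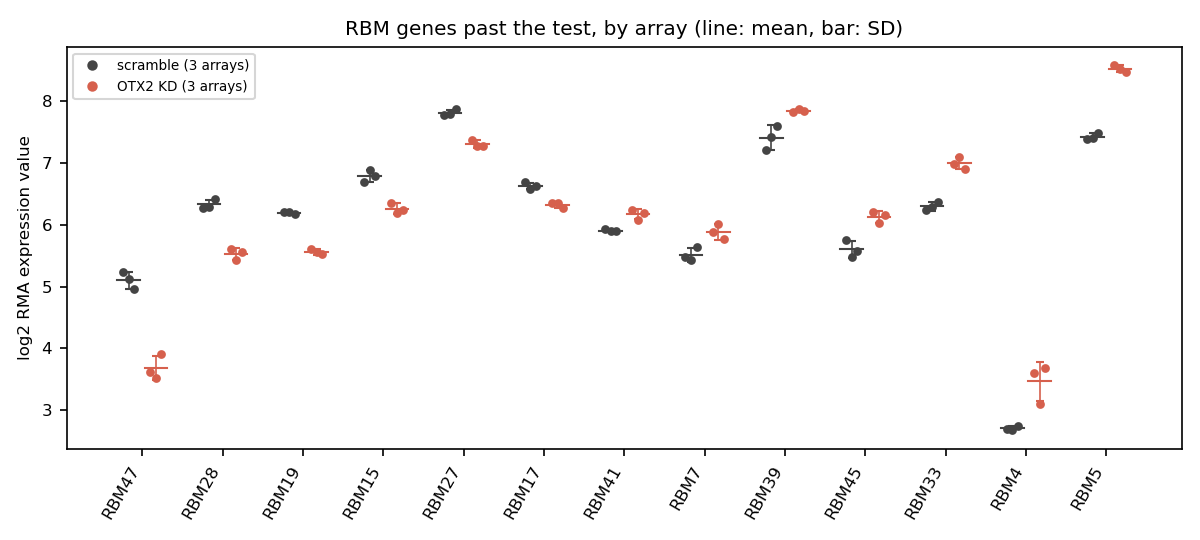
Log2 expression value (vertical axis) of the 13 RBM genes past adjusted p 0.05 in each scramble array (dark points, n = 3) and OTX2 KD array (red points, n = 3), with means (horizontal lines) and SD (bars). RBM47 drops from a mean of 5.10 to 3.69 and RBM5 rises from 7.42 to 8.51.

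The promoter windows of RBM5 and RBM19 are shown because they hold TAATCC in the member with the largest rise and in a member that was lower. In RBM5 (chr3:50088669-50088968, plus strand) TAATCC starts at position -198 relative to the gene start. In RBM19 (chr12:113966276-113966575, minus strand) TTGGCGC starts at -234, TAATCC on the opposite strand (GGATTA) at -62 and CACGTG at -16, each in capitals. Over the matched members, TAATCC occurred in 2 of 25 genes that were lower, 2 of 9 that were higher and 5 of 42 that did not pass.
RBM5: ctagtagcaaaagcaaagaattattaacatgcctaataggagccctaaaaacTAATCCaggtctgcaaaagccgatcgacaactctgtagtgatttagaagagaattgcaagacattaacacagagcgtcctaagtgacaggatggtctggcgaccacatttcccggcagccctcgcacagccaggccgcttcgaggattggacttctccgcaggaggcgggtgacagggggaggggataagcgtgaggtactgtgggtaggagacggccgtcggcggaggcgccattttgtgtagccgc
RBM19: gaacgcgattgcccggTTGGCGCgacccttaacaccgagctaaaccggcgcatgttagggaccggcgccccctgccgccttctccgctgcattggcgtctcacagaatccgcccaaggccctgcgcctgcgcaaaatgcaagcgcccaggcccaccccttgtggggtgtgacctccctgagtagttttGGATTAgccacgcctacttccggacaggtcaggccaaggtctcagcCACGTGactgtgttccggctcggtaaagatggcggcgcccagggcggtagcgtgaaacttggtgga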

How the data were processed

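The authors measured D283 tumorsphere RNA on Affymetrix Human Gene ST arrays (3 OTX2 KD, 3 scramble). The deposited values were log2 RMA expression values, produced by the authors in Affymetrix Expression Console. RMA subtracts background, applies quantile normalization and reduces the probes of each transcript cluster to 1 value. Titles gave each array's group. Sources used here give neither batch nor scan date, and the number of arrays limits the precision.

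All 53617 clusters were fitted by lmFit and eBayes of limma (version 3.58.1, under R 4.3.3). Tests were two-sided and had 4 residual and 3.17 prior degrees of freedom, with no filter on dim clusters and Benjamini-Hochberg adjustment over all clusters. Genes were called at an adjusted p below 0.05 with no fold limit. Errors are SE of the fitted difference or SD of a group. Symbols came from the array annotation, in which 16098 clusters had 1 symbol, 0 had several and 37519 had none; pseudogenes were recognized by RefSeq gene type. The analysis was tested on simulated data.

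Members and lists were chosen with earlier results of these data known. Genes were named by a rule: OTX2, up to 4 largest falls and 4 largest rises per family among called members with separate groups, and up to 2 falls and 2 rises per list. Other members follow by family, and PRMT5, GEMIN5, TGS1, COIL, PHAX, GEMIN8, SRPK2, SRPK3, DYRK1A, CLK2, CLK3, PPIG, TRA2B, the reference genes and the marker genes were chosen after their values were seen. Lists covered U2 and branch site factors, U1 and tri-snRNP proteins, the LSm ring, PRP19 complex and catalytic proteins, exon junction and cap binding, SR kinases and import, Sm ring assembly, the minor spliceosome, 4 RBM genes with a letter after the digits (RBM4B higher, 3 not past), proliferation, 6 reference genes (3 lower, 3 not past) and markers of 6 cell classes.

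The settings varied were a block for replicate number, median centring, repeated quantile normalization, a level filter, adjustment over clusters with a symbol, trend and robust variance, other call rules, the mean of a gene's clusters and leaving out each array. Promoter windows came from RefSeq (GRCh38.p14). Protein sequences were not used here. Plots used matplotlib 3.10.9 (Python 3.11.15).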

Additional observations from a re-analysis of the deposited data

How the results depend on the processing

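None of the 37 members called changed sign when single arrays were left out, after median centring or repeated quantile normalization, with the replicate block or with trend and robust variance, whereas members near 0 did, for example PRPF8 (0.06, and -0.03 after median centring) and HNRNPA1 (0.05 and -0.04). Of the 37 members called, 29 passed with each of the 6 arrays left out, 33 after median centring, 36 after repeated quantile normalization and 37 with trend and robust variance, under which 7 SRSF genes were called in place of 4. Fold limits removed most calls, because most differences were small. With at least 2-fold change 3613 clusters were called (14966 without the limit), with 5 members (SRSF 0, HNRNP 1, PRPF 0, SNRP 2, RBM 2) and 6 genes of the splicing lists, and OTX2 itself, at -0.97, fell just short. When tested against a 1.5-fold limit 3401 clusters passed, with 6 members (SRSF 0, HNRNP 1, PRPF 0, SNRP 3, RBM 2) and 9 list genes. With an unadjusted p below 0.05, 21 RBM genes were called in place of 13. With only clusters that had a symbol, 7367 of 16098 clusters were called, where the full array gave 14966 of 53617. Members called rose from 37 to 47 under this setting (33 lower and 14 higher). Leaving out single arrays gave 12129 to 13128 clusters, 31 to 35 members (SRSF 4, HNRNP 5 to 7, PRPF 4 to 5, SNRP 7, RBM 9 to 14), 39 to 49 list genes and OTX2 differences of -0.99 to -0.96. The replicate numbers of the groups did not pair the arrays, since deviations of same-numbered arrays correlated at -0.0559, -0.0228 and -0.000718. With the replicate number as a block 12980 clusters, 30 members, 42 list genes and 3 PRPF genes were called, and PRPF38A (adjusted p = 0.054), PRPF18 (0.0639), HNRNPCL2 (0.0842), HNRNPUL2 (0.122), RBM17 (0.0646), RBM41 (0.1), RBM7 (0.0886) and U2AF2 (0.051) did not pass. The causes of these changes were not tested beyond what each setting does by construction. Signal over background was not measured, so what it limits for dim genes such as RBM4 was not tested.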
